A study of Mus musculus with 6 samples.

Results

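The 37 genes described here are genes of glucose uptake, glycolysis, lactate export and the hypoxia response, taken by symbol from a list of these pathways out of the 54752 gene identifiers of an RNA-seq count table. They are 2 glucose transporters, 15 glycolytic enzymes, 2 enzymes that set the level of fructose-2,6-bisphosphate, 5 genes of the lactate and pyruvate branch, 5 genes of the hypoxia-inducible factor (HIF) and its oxygen sensing, and 8 other HIF target genes. The RNA came from NIH/3T3, an immortalized line of mouse embryonic fibroblasts, and was depleted of rRNA before sequencing, in 3 groups of 2 replicates held for 72 h. The vehicle group received PBS. The second group received TGFB1 at 1 ng/ml with DMSO, and the third received TGFB1 at 1 ng/ml with BI6727, an inhibitor of the mitotic kinase PLK1, at 5 μM. Both TGFB1 groups were compared with the same 2 vehicle libraries, so these comparisons share their controls. Because vehicle was PBS, TGFB1 and DMSO cannot be told apart in the first of these comparisons. In the second, TGFB1 cannot be told apart from BI6727 and any solvent of it. A change "with BI6727" against vehicle therefore names the group and is not an effect of BI6727 alone. The labels do not say that the replicates were separate cultures. The methods speak of replicates in each group and of biological replicates of cells, with numbers that do not all match these libraries, so a p-value here measures only the spread between these libraries, which may be technical, and every library comes from a single cell line.

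Glycolysis turns glucose into pyruvate, which is reduced to lactate and exported or enters the mitochondria through pyruvate dehydrogenase. When oxygen falls, prolyl hydroxylases such as those encoded by Egln1 and Egln3 no longer mark the HIF alpha subunit for the ubiquitin ligase that holds VHL, and HIF raises transcription of glucose transporters, glycolytic enzymes, Pdk1 and genes such as Adm, Ankrd37 and Ddit4. TGFB1 drives fibroblasts towards the contractile, matrix-secreting myofibroblast state, in which glycolysis is often raised. Because HIF itself is controlled mainly as a protein, its mRNA level is not a measure of its activity.

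The libraries held 18362378 to 24452153 counts on genes, so 3 counts correspond to between 0.124 and 0.167 CPM in a library. CPM are counts relative to the library total after edgeR's TMM scaling. Markers of fibroblasts summed to between 7961 and 10538 CPM, and those of epithelial cells and leukocytes stayed at or below 0.483 CPM in every library. Endothelial markers summed to between 0.208 and 3.57 CPM and were highest in the libraries with TGFB1 and DMSO, and their part in the results was not tested. The replicates with DMSO differed more than the others: the SD of the log2 difference between replicates over genes was 0.377 there, 0.163 in vehicle and 0.147 with BI6727. Replicate 2 with DMSO had short genes high and long genes low, by 0.21 and -0.18 on the log2 scale at 1500 and 8000 bases, and its part in the results was not tested beyond the values given below. In bulk RNA, fewer cells that express a gene and less RNA per cell cannot be told apart.

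Promoters of 4 members past the test below are printed so that members that rose and members that fell can be compared, from RefSeq on GRCm38.p6, 5′ to 3′ on the strand of the gene. Each is the stretch within the 250 bases before the RefSeq start that lies outside every exon of the count table. Capitals mark the letters ACGTG or GCGTG, the core that HIF binds, on either strand (CACGT or CACGC as printed when on the other strand), so CACGTG counts as ACGTG on both. Slc2a1 lies at chr4:119108495-119108710 (+), Ddit4 at chr10:59951835-59952020 (-), Pdk1 at chr2:71872974-71873223 (+, the first of 2 RefSeq starts) and Adm at chr7:110627407-110627656 (+).
Slc2a1: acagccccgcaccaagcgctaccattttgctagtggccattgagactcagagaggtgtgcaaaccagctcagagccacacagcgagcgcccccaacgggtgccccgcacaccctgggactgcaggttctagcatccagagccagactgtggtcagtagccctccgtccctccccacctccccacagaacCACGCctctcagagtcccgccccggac
Ddit4: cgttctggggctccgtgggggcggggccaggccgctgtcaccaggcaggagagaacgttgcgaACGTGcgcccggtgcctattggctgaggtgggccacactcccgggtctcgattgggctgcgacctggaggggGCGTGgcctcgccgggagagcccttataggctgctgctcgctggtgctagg
Pdk1: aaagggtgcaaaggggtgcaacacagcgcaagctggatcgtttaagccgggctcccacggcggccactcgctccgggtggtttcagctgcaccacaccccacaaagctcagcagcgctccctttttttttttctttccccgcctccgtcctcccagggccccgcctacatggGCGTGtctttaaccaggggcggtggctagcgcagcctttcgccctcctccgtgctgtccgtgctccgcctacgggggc
Adm: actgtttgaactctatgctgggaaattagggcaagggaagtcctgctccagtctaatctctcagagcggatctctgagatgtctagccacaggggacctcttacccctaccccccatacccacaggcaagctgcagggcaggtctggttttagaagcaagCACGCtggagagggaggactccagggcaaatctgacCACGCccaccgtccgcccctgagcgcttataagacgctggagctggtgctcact

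The stretches held 1 motif in Slc2a1, 2 in Ddit4, 1 in Pdk1 and 2 in Adm, so genes that rose and genes that fell both carried these letters. Slc2a1 has a further ACGTG, 36 bases before the start, that runs past the end of its stretch and is not marked. Because most members held a motif, its presence in these genes does not set those that rose apart from those that fell. RefSeq promoters were matched by symbol for 33 of the 37 members, all but Slc2a3, Epas1, Bnip3l and Ndrg1. Of these 33 genes, 29 (87.9%) held at least 1 ACGTG or GCGTG in the 250 bases before a start, against 11226 of 27025 genes in the whole table (41.5%). Over single promoters the shares were 38 of 48 (79.2%) and 12679 of 32851 (38.6%). The sequence CACGTG, an E-box that other factors bind and that contains ACGTG, was in 6 of the 48 promoters (12.5%) and in 1978 of all 32851 (6.02%). The members were listed partly for being known HIF targets, and the search says nothing about binding.

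More members were higher than lower with TGFB1 and DMSO relative to vehicle, by a modest amount. A gene was counted as changed when edgeR's quasi-likelihood test gave a Benjamini-Hochberg adjusted p below 0.01 over all genes tested. Of the 37 members, 27 passed a filter of 10 CPM in more than 3 libraries. A gene above 10 CPM in vehicle alone, such as Adm, cannot pass this filter, while a gene above it in both TGFB1 groups alone can. The filter thus favours genes that rose in both TGFB1 groups, among the members and among all genes. Between TGFB1 with DMSO and vehicle, 4 of these 27 (14.8%) rose, namely Slc2a1, Pfkp, Aldoa and Ddit4, beside 4.92% of all 9518 genes tested, and 0 fell, beside 4.91%. At an unadjusted p under 0.05, 18 of the 27 members (66.7%) differed in either direction, beside 37.8% of all genes. DESeq2 gave 7 members higher (25.9%) and 1 lower (3.70%), beside 9.37% and 9.35% of all genes. A change above 2-fold was met by Ddit4 alone, while 2.56% of all genes rose and 2.53% fell by that much. The median log2 fold change was 0.26 over the members and -0.0045 over all genes, and 20 members had a positive and 7 a negative value.

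Between TGFB1 with BI6727 and vehicle, 5 of the 27 members rose (18.5%), namely Slc2a1, Pfkp, Aldoa, Pfkfb4 and Ddit4, beside 4.94% of all genes. Pdk1 was the member that fell (3.7% of members), beside 5.99% of all genes. Of these 6 changes that of Pdk1 was above 2-fold, a size reached upward by 2.34% and downward by 2.96% of all genes. The median over the members was 0.04, and over all genes 0.0029. Against the mean of vehicle, the members' median was 0.28 and 0.24 on the log2 scale in the libraries with DMSO and 0.07 and 0.10 in those with BI6727, so the libraries of each group lay together. These counts moved with every library. The share called over all genes moved as well. With either vehicle library left out 0 members passed in either comparison, and between 0.504% and 1.25% of all genes were called in a direction. With either BI6727 library left out 1 member rose with DMSO, beside 2.33% and 2.27% of all genes, and 0 passed with BI6727, beside 0.988% to 1.36%. Without replicate 1 of DMSO 9 members rose with DMSO (33.3%, beside 22.5% of all genes) and 5 fell (18.5%, beside 24.5%). Without replicate 2 of DMSO 14 rose (51.9%, beside 13.9%) and 1 fell (3.70%, beside 13.2%). In the comparison of BI6727 with vehicle, leaving out either DMSO library gave 8 members higher (29.6%, beside 20.3% and 20.4% of all genes) and 5 or 6 lower (18.5% and 22.2%, beside 21.3% and 21.1%).

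**Figure D1:**
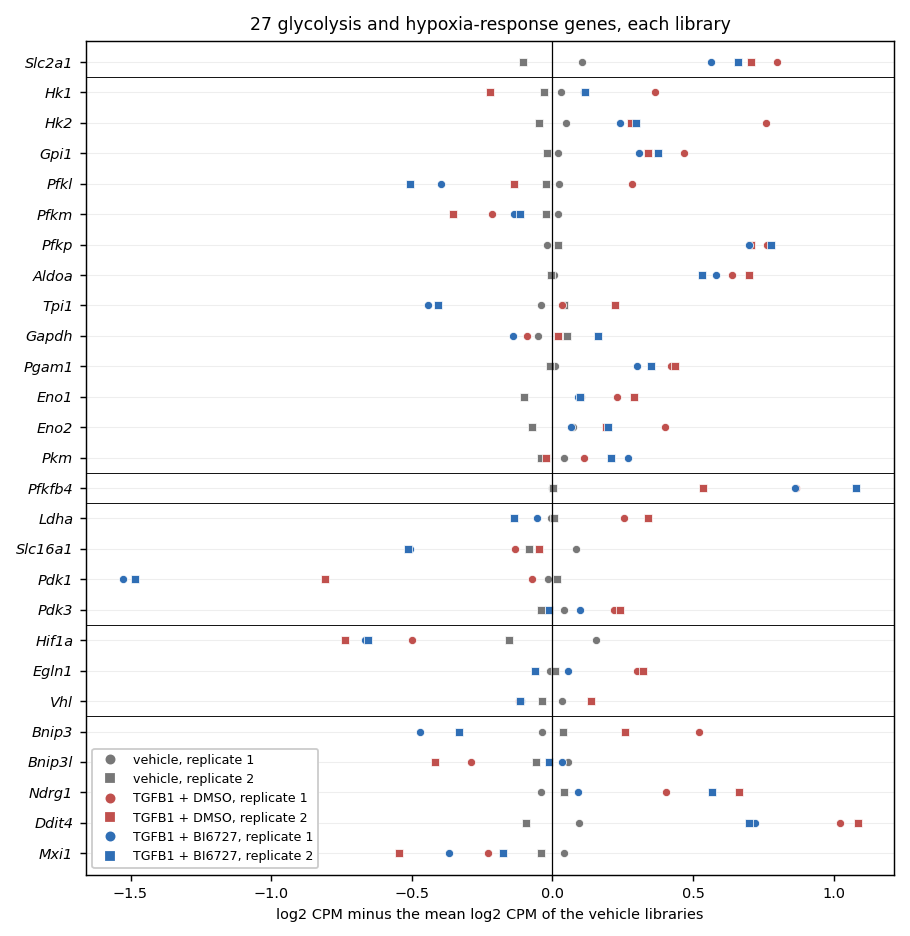
Each row is 1 of the 27 members that passed the 10 CPM filter, grouped by role, and each point is 1 library, placed at its log2 CPM minus the mean log2 CPM of the vehicle libraries (circles, replicate 1; squares, replicate 2). Slc2a1, Pfkp, Aldoa, Pfkfb4 and Ddit4 have all 4 TGFB1 libraries to the right of both vehicle libraries, and Pdk1 has both BI6727 libraries at the far left with the DMSO replicates apart from each other.

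Of the glucose transporters, Slc2a1 rose in both TGFB1 groups. Slc2a1 (ENSMUSG00000028645.11, chr4:119108711-119137983, + strand, mm10) encodes GLUT1. It stood at 200.4 and 173 CPM in vehicle, 324 and 304 with TGFB1 and DMSO, and 275 and 294 with TGFB1 and BI6727. All 4 TGFB1 libraries lay above both vehicle libraries. Slc2a1 rose by 0.75 ± 0.11 (log2, SE) with DMSO (adjusted p = 0.00338) and by 0.61 ± 0.11 with BI6727 (adjusted p = 0.00730). Leaving out either vehicle or either BI6727 library ended both calls, with adjusted p between 0.0164 and 0.0556 for the first and between 0.0458 and 0.0923 for the second. Slc2a3, which encodes the high-affinity transporter GLUT3, had 0 and 3 counts in vehicle, 2 and 0 with DMSO and 4 and 22 with BI6727, too few to test, and the count of 22 came from a single library.

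The steps from glucose to triose phosphate were led by Pfkp and Aldoa. Pfkp (ENSMUSG00000021196.14, chr13:6579768-6648777, - strand), the platelet-type isoform of phosphofructokinase, was at 17.9 and 18.4 CPM in vehicle, 30.8 and 29.6 with DMSO, and 29.5 and 31.1 with BI6727. Aldoa (ENSMUSG00000030695.16, chr7:126795234-126800751, - strand), the main aldolase outside liver and brain, was at 525 and 521 CPM in vehicle, 814 and 849 with DMSO, and 782 and 756 with BI6727. In both genes the TGFB1 libraries lay above vehicle without overlap. Pfkp rose by 0.74 ± 0.12 with DMSO (adjusted p = 0.00623) and by 0.74 ± 0.12 with BI6727 (adjusted p = 0.00552). Aldoa rose by 0.67 ± 0.10 (adjusted p = 0.00366) and by 0.56 ± 0.10 (adjusted p = 0.00730). Each vehicle and each BI6727 library, when left out, ended these calls: adjusted p lay between 0.0270 and 0.0837 and between 0.0545 and 0.0736 for Pfkp, and between 0.0232 and 0.0759 and between 0.0823 and 0.103 for Aldoa.

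The other phosphofructokinases did not move with Pfkp. Pfkl, the liver-type isoform, was at 129 and 125 CPM in vehicle, 155 and 116 with DMSO, and 96.6 and 89.3 with BI6727, and none of its changes passed. Pfkm, the muscle-type isoform, was at 80.7 and 78.4, 68.6 and 62.3, and 72.3 and 73.4 CPM in the same order. Scaled by gene length, Pfkp was the lowest of the 3 isoforms in vehicle, at 1.35 CPM per kb beside 19.0 for Pfkl and 23.8 for Pfkm. It stayed the lowest in both TGFB1 groups, at 2.25 and 2.26 CPM per kb. The length is that of all annotated exons together, 13401 bases for Pfkp, 6675 for Pfkl and 3340 for Pfkm. Their principal mRNAs are 4145, 3730 and 2879 bases long. By these Pfkp is still the lowest, its value is higher, and Pfkl stands above Pfkm. Exons of Pfkp overlap those of Pitrm1 over 5.58% of their length, and the strand setting of the counting is not given in the sources used here.

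Of the hexokinases, which trap glucose as its phosphate, Hk2 had a log2 fold change of 0.54 ± 0.18 with DMSO (adjusted p = 0.0649) and Hk1 of 0.10 ± 0.18 (adjusted p = 0.697). Gpi1, which makes fructose 6-phosphate, had 0.40 ± 0.09 (adjusted p = 0.0212), and Pgam1, the phosphoglycerate mutase, had 0.43 ± 0.09 (adjusted p = 0.0129), both higher in all 4 TGFB1 libraries than in vehicle but short of the threshold. With BI6727 their values were 0.34 ± 0.09 (adjusted p = 0.0360) and 0.33 ± 0.09 (adjusted p = 0.0324). Gpi1 was at 189 and 184 CPM in vehicle, 258 and 236 with DMSO, and 231 and 242 with BI6727. Pgam1 was at 129 and 127, 171 and 173, and 158 and 163 CPM in the same order. Eno1, Eno2 and Pkm, which complete the pathway, had log2 fold changes between 0.05 and 0.30 in both comparisons with vehicle. Aldoc, the brain aldolase, had 8 to 26 counts in a library, too few for its values to be read.

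Tpi1, the triose phosphate isomerase, was lower with BI6727 than in the other groups, but not past the test. It was at 508 and 537 CPM in vehicle, 535 and 609 with DMSO, and 384 and 394 with BI6727. The BI6727 libraries lay below all 4 others, and vehicle and DMSO overlapped. The log2 fold change with BI6727 was -0.43 ± 0.11 against vehicle (adjusted p = 0.0263) and -0.56 ± 0.11 against DMSO (adjusted p = 0.468), and neither passed. Against vehicle, DESeq2 (adjusted p = 0.00461) and edgeR with length offsets (adjusted p = 0.00186) placed Tpi1 past the threshold. With a replicate block edgeR did not (adjusted p = 0.0421). The summed CPM of the 15 enzymes were 3486 and 3383 in vehicle, 4093 and 3922 with DMSO, and 3936 and 3867 with BI6727. The sum was thus higher in all 4 TGFB1 libraries, and Pkm made up the largest share of it. The means were 3434 ± 73.0, 4008 ± 121 and 3902 ± 48.9 CPM (SD, n = 2), and the sum was not tested.

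Several glycolytic enzymes share sequence with other genes that held many counts. The share was measured by cutting the principal mRNA of each member into windows of 50 bases, the read length, and looking for each window in the transcripts of all other genes of Gencode M21. Every window of the coding sequence of Gapdh, Pgk1 and Pgam1 was found elsewhere. Of Eno1 83.3% were, of Pkm 52.9%, of Gpi1 40.9%, of Ldha 31%, of Aldoa 19.5% and of Tpi1 13.7%. Over the whole mRNA the shares were lower, at 90.4% for Gapdh, 68% for Pgk1, 41.5% for Pgam1 and 72.2% for Eno1. They were 34.4% for Pkm, 25.3% for Gpi1, 17.1% for Ldha, 13.9% for Aldoa and 7.51% for Tpi1. A 50-base read from a window held by a copy at another locus, in most cases a processed pseudogene, maps equally well to both. The shares also take in genes whose exons overlap at the same locus, as Gm49759 does with Pkm and Gm26762 with Gpi1. Pseudogenes alone held 52.8% of the mRNA windows of Eno1, 30.5% of Pkm, 19.1% of Gpi1 and 8.82% of Aldoa. For Gapdh, Pgk1, Pgam1, Ldha and Tpi1 the share in pseudogenes equalled that in all other genes.

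Gapdh and Gm13394 are printed because a single base separates them and Gm13394 held the most counts of the copies. Gapdh encodes the triose phosphate dehydrogenase often used as a reference gene, and lies at chr6:125161715-125166467 (-) in mm10. Its coding sequence of 999 bases differs from the intronless pseudogene Gm13394, at chr2:28933610-28934609 (-), by a single substitution, A346C, counted from the first coding base with the base of Gapdh first. The stretches around it are printed with that base in capitals, from the fourth exon of Gapdh at chr6:125162992-125163040 (-) and from Gm13394 at chr2:28934240-28934288 (-).
Gapdh: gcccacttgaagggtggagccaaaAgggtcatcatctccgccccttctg
Gm13394: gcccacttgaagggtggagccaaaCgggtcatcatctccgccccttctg

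A window of Gapdh that was found in 84 other genes, 80 of them pseudogenes, is shown because so many loci share it. It covers coding bases 415 to 464, in the fourth exon, at chr6:125162898-125162947 (-). The second window, found in 3 pseudogenes, covers coding bases 927 to 976 of Pgk1 and runs over the junction of its eighth and ninth exons, between chrX:106200327-106202478 (+). A copy without introns holds that stretch unbroken. The coding sequence of Pgk1 had no difference from the pseudogene Pgk1-rs7 over the 1250 bases that could be aligned, and that of Pgam1 had none from Pgam1-ps2 over 762.
Gapdh window: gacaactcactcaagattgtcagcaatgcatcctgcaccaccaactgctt
Pgk1 window: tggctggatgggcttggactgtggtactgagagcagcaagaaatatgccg

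Most counts lay on the copies for Gapdh, Pgk1, Eno1, Pgam1 and Gpi1. Gapdh itself was at 11.9 and 12.8 CPM in vehicle, 11.6 and 12.6 with DMSO, and 11.2 and 13.9 with BI6727, with overlap between all groups and no change past the test (adjusted p = 0.889 with DMSO and 0.934 with BI6727). It had between 202 and 335 counts in a library, while Gm13394 had between 10905 and 14873. Near identity alone did not go with many counts. The copies Gm7336, Gm10359 and Gm12671 shared all 950 coding windows of Gapdh. They had 695, 194 and 113 counts over all libraries, beside 77121 for Gm13394, and why the copies differed was not tested. In all, between 97.8% and 98.3% of the summed counts of Gapdh and its copies lay on the copies. For Pgk1, the phosphoglycerate kinase, with 31 to 69 counts of its own, the share was 91.3% to 96.2%, and for Eno1 82.4% to 84.4%, much of it on the protein-coding gene Eno1b. It was 65.2% to 71.5% for Pgam1, 55.1% to 56.2% for Gpi1 and 24.8% to 25.7% for Pkm. For Tpi1 it was 15.9% to 18.9%, for Ldha 13.4% to 14.4% and for Aldoa 0.102% to 0.192%. In Gapdh, Pgk1, Eno1, Pgam1, Gpi1 and Tpi1 it was above the share of mRNA windows found elsewhere. In Pkm, Ldha and Aldoa it was below that share. Where the counts on copies came from was not tested. Expressed per kb of all annotated exons, Gapdh stood at 3.00 CPM and Pgk1 at 0.858 in vehicle, far below Pgam1 at 69.8 and Ldha at 267. The own counts of Gapdh and Pgk1 can therefore not be read as their levels.

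With copies added to their parent gene and the fit repeated, the calls over the members stayed 4 higher and 0 lower with DMSO, and 5 higher and 1 lower with BI6727. The summed counts of Gapdh and its copies gave 636 and 592 CPM in vehicle, 679.6 and 754 with DMSO, and 647 and 661 with BI6727. Their log2 fold changes were 0.22 ± 0.11 with DMSO (adjusted p = 0.169) and 0.09 ± 0.11 with BI6727 (adjusted p = 0.571), where the counts on Gapdh alone gave -0.03 and 0.02. For Pgk1 the sum gave 0.23 ± 0.14 (adjusted p = 0.255) and -0.19 ± 0.14 (adjusted p = 0.372), where its own counts gave 0.72 and 0.24. Such a sum also holds any RNA of the copies themselves, and copies that the annotation does not name are not in it.

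**Figure D2:**
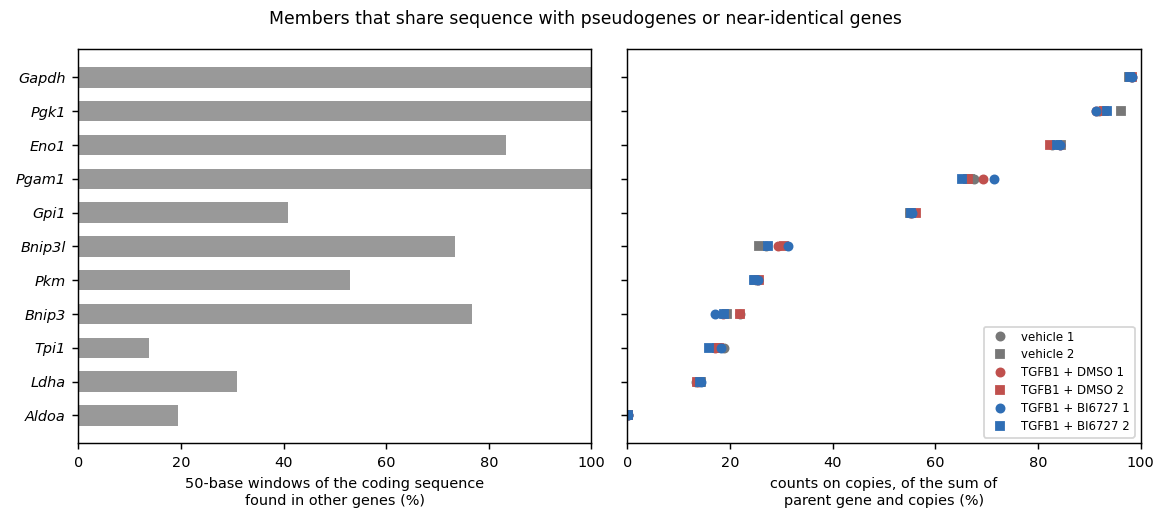
For 11 members, the left panel gives the percentage of 50-base windows of the coding sequence found in other genes, and the right panel gives, for each library, the percentage of the summed counts of parent and copies that lay on the copies (grey, vehicle; red, TGFB1 with DMSO; blue, TGFB1 with BI6727). The share on copies runs from over 97.8% for Gapdh to under 0.192% for Aldoa, and the libraries of a gene lie close together.

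Fructose-2,6-bisphosphate, which activates phosphofructokinase, is made and removed by the Pfkfb enzymes. Pfkfb4 (ENSMUSG00000025648.18, chr9:108991778-109032228, + strand) was at 8.05 CPM in both vehicle libraries, 14.7 and 11.7 with DMSO, and 14.7 and 17.1 with BI6727. All TGFB1 libraries were above vehicle. Pfkfb4 rose by 0.98 ± 0.17 with BI6727 (adjusted p = 0.00712), and its log2 fold change with DMSO was 0.71 ± 0.17 (adjusted p = 0.0254). Either vehicle or either BI6727 library left out ended the call with BI6727, with adjusted p between 0.0381 and 0.0779. Pfkfb3, its paralogue, lay under the 10 CPM filter and had log2 fold changes of 0.39 ± 0.22 and 0.33 ± 0.22, neither past the test.

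In the lactate and pyruvate branch, Pdk1 fell with TGFB1 and BI6727 relative to vehicle. Pdk1 (ENSMUSG00000006494.11, chr2:71873224-71903858, + strand) encodes a kinase that switches off pyruvate dehydrogenase and is a known HIF target. It was at 45.0 and 46.0 CPM in vehicle, 43.3 and 26.0 with DMSO, and 15.7 and 16.2 with BI6727. The BI6727 libraries lay below all others and agreed closely, while the DMSO replicates stood far apart. Against vehicle, its log2 level fell by 1.51 ± 0.23 with BI6727 (adjusted p = 0.00391), and without any 1 of the vehicle or BI6727 libraries adjusted p lay between 0.0423 and 0.0475. Against DMSO the log2 fold change was -1.11 ± 0.23 (adjusted p = 0.524). Its paralogue Pdk3 was at 41.0 to 49.8 CPM over all libraries, and no change in it passed.

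Ldha, the lactate dehydrogenase subunit that reduces pyruvate, was at 879.7 and 886 CPM in vehicle, 1053 and 1117 with DMSO, and 849 and 802 with BI6727. The DMSO libraries were above all others. The log2 fold change was 0.30 ± 0.11 with DMSO (adjusted p = 0.0822), -0.10 ± 0.11 with BI6727 against vehicle (adjusted p = 0.545) and -0.39 ± 0.11 between the TGFB1 groups (adjusted p = 0.583). Slc16a1, the lactate transporter MCT1, was at 119.7 and 107 CPM in vehicle, 103 and 109 with DMSO, and 79.5 and 79.2 with BI6727. Its log2 fold change with BI6727 against vehicle, -0.51 ± 0.10, narrowly missed the threshold (adjusted p = 0.0104). DESeq2 (adjusted p = 0.000923) and edgeR with length offsets (adjusted p = 0.00237) placed it past the threshold, and edgeR with a replicate block did not (adjusted p = 0.0264). Slc16a3, the exporter MCT4, had 23 to 53 counts in a library, and no change in it passed.

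Of the HIF subunits, Hif1a was lower in every TGFB1 library than in vehicle, but not past the test. It was at 215 and 173 CPM in vehicle, 136 and 116 with DMSO, and 121 and 122 with BI6727. The groups with TGFB1 did not overlap with vehicle and overlapped with each other. The log2 fold change was -0.62 ± 0.13 with DMSO (adjusted p = 0.0167) and -0.67 ± 0.13 with BI6727 (adjusted p = 0.0117). DESeq2 placed both past the threshold, with adjusted p of 0.00108 and 0.000259, and so did edgeR with length offsets (0.00396 and 0.00168). With a replicate block edgeR did not (adjusted p = 0.0181 and 0.0139). With 1 library left out, whether Hif1a passed depended on the library. Its log2 fold change then lay between -0.77 and -0.46 with DMSO and between -0.82 and -0.51 with BI6727. Exons of Hif1a overlap those of Gm15283 and Gm49321 over 8.11% of their length. Epas1, which encodes HIF-2 alpha, had 2 counts in a single DMSO library and 0 in the other 5 libraries.

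The oxygen sensors differed from each other. Egln3 (ENSMUSG00000035105.5, chr12:54178981-54203860, - strand), a HIF target that encodes the prolyl hydroxylase PHD3, was at 6.85 and 6.28 CPM in vehicle, 16.7 and 14.2 with DMSO, and 11.1 and 9.69 with BI6727. The 3 groups did not overlap, with BI6727 between the others. Egln3 lay under the 10 CPM filter, and was tested over the 14604 genes kept by edgeR's filterByExpr. There it rose by 1.24 ± 0.18 with DMSO (adjusted p = 0.00208), and its log2 fold change with BI6727 was 0.68 ± 0.18 against vehicle (adjusted p = 0.0317) and -0.57 ± 0.18 against DMSO (adjusted p = 0.572). Without either vehicle library the call with DMSO was lost (adjusted p = 0.0321 and 0.0378).

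Egln1, the main prolyl hydroxylase PHD2, was at 71.3 and 72.4 CPM in vehicle, 88.5 and 89.9 with DMSO, and 74.7 and 68.8 with BI6727. The DMSO libraries were above all others, with a log2 fold change of 0.31 ± 0.10 over vehicle (adjusted p = 0.0548). Vhl, the substrate receptor of the ligase, was at 41.7 and 39.7, 37.4 and 44.7, and 37.7 and 37.6 CPM in the same order. Its groups overlapped between vehicle and DMSO, and no change passed (adjusted p = 0.946 with DMSO and 0.556 with BI6727).

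Among the other HIF targets, Ddit4 had the lowest adjusted p of the 27 members. Ddit4 (ENSMUSG00000020108.4, chr10:59949669-59951834, - strand) encodes REDD1, an inhibitor of mTORC1 that stress and hypoxia induce. It was at 86.1 and 75.6 CPM in vehicle, 164 and 171 with DMSO, and 133 and 131 with BI6727. The 3 groups did not overlap, and BI6727 lay between the others. Ddit4 rose by 1.05 ± 0.10 with DMSO (adjusted p = 0.000577), which is 2.07-fold, and by 0.71 ± 0.10 with BI6727 (adjusted p = 0.00288). Leaving out either vehicle library ended both calls (adjusted p = 0.0128 and 0.0161, then 0.0287 and 0.0497), and leaving out either BI6727 library ended the second (adjusted p = 0.0443 and 0.0412).

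With DMSO, Ankrd37 rose and Adm fell, both under the 10 CPM filter. Over the genes kept by filterByExpr, 6 of 35 members rose with DMSO (17.1%) and 1 fell (2.86%), beside 4.63% and 5.10% of all genes. Against vehicle with BI6727, 5 rose (14.3%) and 2 fell (5.71%), beside 4.58% and 5.90%. The genes this adds are Egln3, Ankrd37 and Adm. Ankrd37 (ENSMUSG00000050914.16, chr8:45996902-46005707, - strand), an ankyrin-repeat gene induced by hypoxia, had 12 and 11 counts in vehicle, 81 and 66 with DMSO, and 23 and 28 with BI6727. In CPM these were 0.623 and 0.501, 3.91 and 3.18, and 1.28 and 1.16, with no overlap between the groups.

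Ankrd37 rose by 2.66 ± 0.38 with DMSO (adjusted p = 0.00181), and its log2 fold change with BI6727 was 1.13 ± 0.40 (adjusted p = 0.0808). Without either vehicle library its call was lost (adjusted p = 0.0241 and 0.0290). Exons of Lrp2bp and Ufsp2 overlap those of Ankrd37 over 26.4% of their length, and how its few counts divide between these genes was not tested. Adm (ENSMUSG00000030790.15, chr7:110627661-110629820, + strand), which encodes the vasodilator peptide adrenomedullin and is a classical hypoxia-induced gene, had 276 and 232 counts in vehicle, 44 and 33 with DMSO, and 12 and 26 with BI6727. It was lower in all 4 TGFB1 libraries, at 2.12 and 1.59 CPM with DMSO and 0.668 and 1.08 with BI6727, than in vehicle at 14.3 and 10.6. With DMSO the log2 level of Adm fell by 2.73 ± 0.29 (adjusted p = 0.000419) and fell by 3.77 ± 0.32 with BI6727 (adjusted p = 0.000116). The second call held without any 1 library, and the first was lost only without replicate 1 of vehicle (adjusted p = 0.0126).

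**Figure D3:**
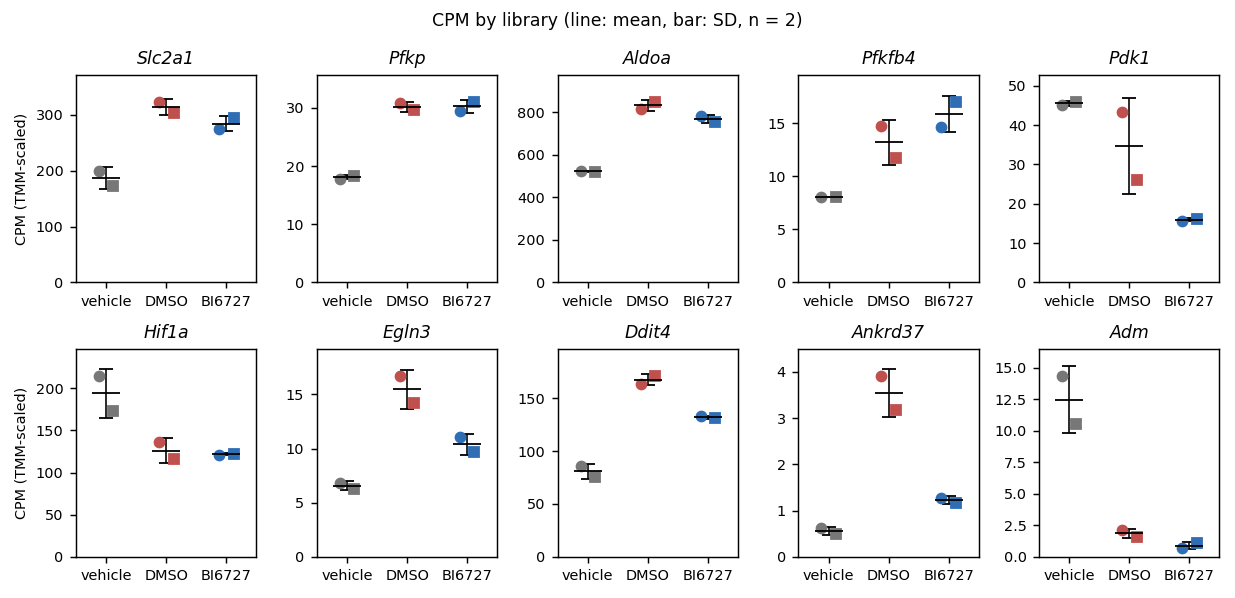
CPM on a linear axis from 0 in each library for the 9 members past the test in a comparison with vehicle and for Hif1a, with the mean as a line and the SD as a bar (n = 2 in each group; circles, replicate 1; squares, replicate 2; DMSO and BI6727 stand for TGFB1 with DMSO and TGFB1 with BI6727). Egln3, Ddit4 and Ankrd37 have BI6727 between vehicle and DMSO, Pdk1 has BI6727 lowest, and Adm is highest in vehicle.

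The remaining HIF targets did not pass in either comparison with vehicle. Bnip3 and Bnip3l encode mitophagy receptors. Bnip3 was at 22.8 and 24.1 CPM in vehicle, 33.7 and 28.0 with DMSO, and 16.9 and 18.6 with BI6727, so that its groups did not overlap and BI6727 was lowest. Bnip3l went the other way, with DMSO lowest at 53.3 and 48.8 CPM beside 67.7 and 62.6 in vehicle and 66.7 and 64.6 with BI6727. Exons of Gm45507 overlap those of Bnip3 over 22.3% of their length, and 17.2% to 22.0% of its counts summed with copies lay on the copies. Ndrg1, a stress-response gene, had log2 fold changes of 0.54 ± 0.18 and 0.35 ± 0.18, and Mxi1, a repressor of MYC targets, of -0.38 ± 0.16 and -0.27 ± 0.15. Car9, the membrane carbonic anhydrase often used as a hypoxia marker, had only 2 to 25 counts in a library.

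The effect of BI6727 in the presence of TGFB1 is the comparison of both TGFB1 groups. No member passed the test there, and 0% of all 9518 genes, or of the 14604 genes kept by filterByExpr, were called in either direction. At an unadjusted p under 0.05, 9 of the 27 members and 636 of all 9518 genes differed, and the smallest adjusted p of a member was 0.468. The members' median log2 fold change was -0.14, beside -0.0028 over all genes, and 19 of the 27 had a negative value. The most negative were Pdk1 at -1.11 ± 0.23 (adjusted p = 0.524), Bnip3 at -0.79 ± 0.15 (adjusted p = 0.468), Tpi1 at -0.56 ± 0.11 (adjusted p = 0.468) and Pfkl at -0.54 ± 0.14 (adjusted p = 0.583). In each of these the BI6727 libraries lay below both DMSO libraries.

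The outcome of this comparison depended on the test and on the DMSO replicates. DESeq2 on the same 27 members gave 3 lower, Tpi1 (adjusted p = 0.00362), Pdk1 (adjusted p = 0.00144) and Bnip3 (adjusted p = 0.00362), and 0 higher. These are 11.1% of the members, beside 0.252% of all genes lower by DESeq2. With replicate 1 of DMSO left out, edgeR gave 8 members lower (29.6%, beside 8.32% of all genes) and 2 higher (7.41%, beside 9.19%). With replicate 2 of DMSO left out, it gave 5 lower, Pfkl, Tpi1, Ldha, Pdk1 and Bnip3, all of which were among the 8 (18.5% of members, beside 1.71% of all genes). In these fits DMSO is a single library that is assumed to vary as the others do. Pdk1 was -0.70 (adjusted p = 0.000811) against replicate 2 alone and -1.45 (adjusted p = 4.11e-07) against replicate 1 alone. The values for Tpi1 were -0.64 (adjusted p = 5.98e-06) and -0.47 (adjusted p = 0.000565). Hk1 turned from 0.34 (adjusted p = 0.00466) to -0.26 (adjusted p = 0.0557) between these choices. For Ddit4 the difference between the groups was -0.34 ± 0.10 (adjusted p = 0.610), with adjusted p of 0.00292 and 0.0293 when replicate 1 and replicate 2 were left out.

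**Figure D4:**
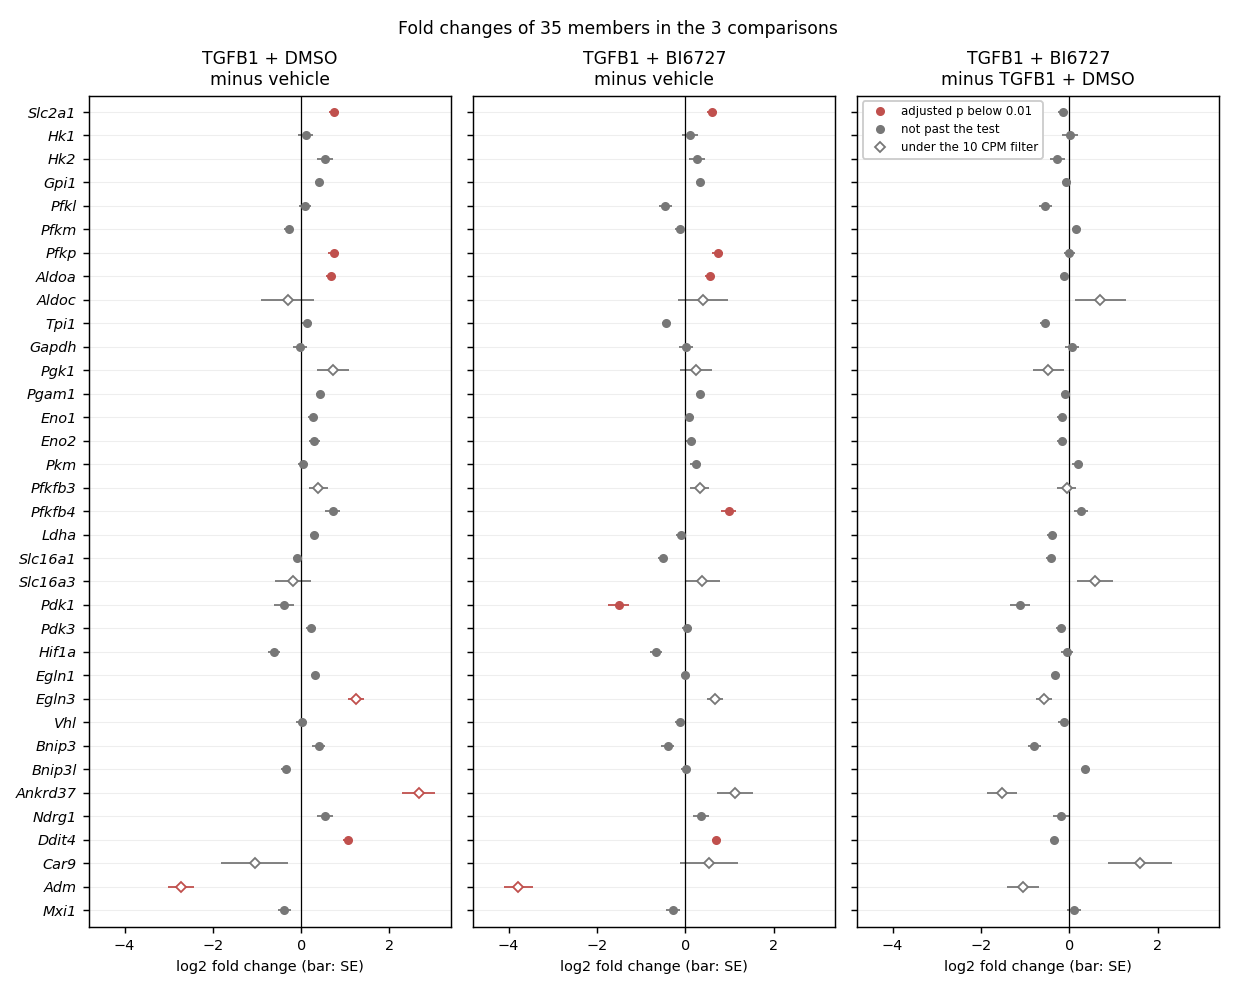
Log2 fold change with its SE (horizontal bar) of the 35 members that could be fitted, in the 3 comparisons; filled circles are members above the 10 CPM filter, open diamonds those under it, and red marks an adjusted p below 0.01. Red points are 7 in each of the comparisons with vehicle and 0 between the TGFB1 groups, where most points lie left of 0.

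Other genes of the same pathways were described from a second list of 73, of which 49 passed the 10 CPM filter. With DMSO 8 of these rose (16.3%) and 4 fell (8.16%), beside 4.92% and 4.91% of all genes. With BI6727 7 rose (14.3%) and 5 fell (10.2%) against vehicle, beside 4.94% and 5.99%, and 0 passed between the TGFB1 groups (8 at an unadjusted p under 0.05). Of the 19 other HIF targets tested, 7 rose (36.8%) and 1 fell (5.26%) in each comparison with vehicle, beside the shares of all genes just given. Above the 10 CPM filter, the genes past 2-fold with DMSO were Vegfa, Plod2, Bhlhe40, Stc2 and, downward, Pdp1. Over the genes kept by filterByExpr, 4 of 59 rose and 3 fell past 2-fold, beside 402 and 472 of all 14604 genes. Of the other HIF targets there, 4 rose and 1 fell past 2-fold. Stc1, a HIF target under the 10 CPM filter, had 83 and 61 counts in vehicle, 16 and 2 with DMSO, and 19 and 18 with BI6727. Vegfa, the angiogenic growth factor, was at 96.9 and 103 CPM in vehicle, 609 and 596 with DMSO, and 581 and 603 with BI6727. It rose by 2.59 ± 0.10 (adjusted p = 2.71e-05) and 2.57 ± 0.10 (adjusted p = 2.15e-05), far more than any member above the filter.

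Plod2, a lysyl hydroxylase of collagen, rose by 1.32 ± 0.12 on the log2 scale with DMSO (adjusted p = 0.000412), and rose 2.83-fold with BI6727 (adjusted p = 0.000209). Bhlhe40, a transcriptional repressor, rose by 1.31 ± 0.13 (adjusted p = 0.000651) and 1.09 ± 0.13 (adjusted p = 0.00137), and Stc2, a secreted glycoprotein, by 1.10 ± 0.14 (adjusted p = 0.00181) and 0.93 ± 0.14 (adjusted p = 0.00337). Pdp1, the phosphatase that reactivates pyruvate dehydrogenase and so opposes the Pdk kinases, was at 45.1 and 49.2 CPM in vehicle, 18.7 and 19.7 with DMSO, and 17.9 and 22.1 with BI6727. It fell by 1.30 ± 0.15 (adjusted p = 0.00118) and fell by 1.23 ± 0.15 (adjusted p = 0.00131). In none of Vegfa, Plod2, Bhlhe40, Stc2 and Pdp1 did the TGFB1 groups differ past the test, where adjusted p lay between 0.765 and 0.965.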

How the data were processed

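Per the labels and the study's methods, the authors sequenced single-end reads of 50 bases, aligned them to mm10 with Subjunc (Subread 1.6.4) at its default parameters and counted them per gene of Gencode M20 with featureCounts, and the deposited counts are raw. The strand setting of the counting and its treatment of reads that map to several places are not given in the sources used here. Counts were tested with edgeR 4.0.16 in R 4.3.3 by its quasi-likelihood test in a single fit of the 6 libraries (3 residual degrees of freedom), with TMM scaling and genes above 10 CPM in more than 3 libraries. Members under that filter were read from a fit over genes kept by filterByExpr. A gene was called past the test at a Benjamini-Hochberg adjusted p below 0.01. The SE is the absolute log2 fold change divided by the square root of F. Alternatives were DESeq2 1.42.0, its size factors, other filters, length offsets, replicate blocks and each library left out. With 2 libraries against 2, an exact permutation test cannot go below p = 0.333, so none was used. All 37 members were named by role, in full where past the test in a comparison with vehicle, with Hif1a, Epas1, Egln1, Egln3, Vhl, Gapdh, Slc2a1, Ldha and Pdk1 in full whatever the result. Of the other pathway genes above the 10 CPM filter, up to 8 past the test and 2-fold with DMSO were named. The members and lists were chosen with earlier results of these data known. The fits were tested on simulated data. Floors in counts cover counting error only.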

Additional observations from a re-analysis of the deposited data

How the results depend on the processing

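Counts past the test among the 27 members above the 10 CPM filter, higher and lower, were 4 and 0 with DMSO, 5 and 1 with BI6727 (both against vehicle), and 0 and 0 between the TGFB1 groups. Of all genes, 4.92% and 4.91%, 4.94% and 5.99%, and 0% and 0% were called. DESeq2's size factors and counts on copies added to the parent (added after seeing the data) gave the same counts of members. With DESeq2's size factors 5.13% and 4.79%, 4.98% and 6.01%, and 0% and 0% of all genes were called. With copies added the shares of all genes did not move. In the same order of comparisons, DESeq2 gave 7 and 1, 5 and 4, and 0 and 3. It called 9.37% and 9.35%, 8.68% and 10.5%, and 0.0105% and 0.252% of all genes. No filter gave 9 and 2, 5 and 5, and 0 and 3 over 35 members, of which 7 and 1, 5 and 4, and 0 and 3 were among the 27. Without a filter 5.47% and 5.93%, 5.19% and 6.24%, and 0.0482% and 0.293% of all genes were called. FilterByExpr gave 6 and 1, 5 and 2, and 0 and 0 over 35 members, of which 4 and 0, 5 and 1, and 0 and 0 were among the 27. That filter gave 4.63% and 5.10%, 4.58% and 5.90%, and 0% and 0% of all genes. An adjusted p below 0.05 gave 7 and 1, 7 and 4, and 0 and 0, and the share of all genes at that threshold was not counted. Length offsets gave 7 and 1, 6 and 4, and 0 and 0. With them 9.86% and 9.38%, 10.1% and 11%, and 0% and 0.105% of all genes were called. Only the 2 groups compared gave 1 and 0, 8 and 5, and 0 and 0. These fits called 2.36% and 2.12%, 20.4% and 21.2%, and 0% and 0% of all genes. With BI6727 the 8 and 5 are 29.6% and 18.5% of the members. Leaving out 1 library each gave 0 to 14 and 0 to 5, 0 to 8 and 0 to 6, and 0 to 2 and 0 to 8. The cause was not tested.

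Deviations of equal replicate numbers correlated at -0.11 (vehicle and DMSO), 0.05 (vehicle and BI6727) and -0.26 (DMSO and BI6727), so the numbers were not taken to pair the libraries. The replicate block gave 2 and 0, 1 and 1, and 0 and 0, beside 3.26% and 3.30%, 3.33% and 3.98%, and 0% and 0% of all genes. With length offsets it gave 6 and 1, 6 and 4, and 0 and 0. The shares of all genes were then 8.92% and 8.39%, 9.07% and 10.1%, and 0% and 0.126%. The crossed replicate block, chosen after seeing the data, gave 4 and 0, 3 and 1, and 0 and 0. It called 4.97% and 4.79%, 5% and 5.90%, and 0% and 0% of all genes. Combined with length offsets it gave 6 and 1, 6 and 4, and 0 and 0. Of all genes 10.2% and 9.59%, 10.4% and 11%, and 0% and 0.0946% were then called. Each alternative was compared with the main fit, and no member past the test in either had the opposite sign in the other. Signs did differ from alternative to alternative, as for Hk1 when a different DMSO library was left out. With 2 libraries a group and 3 residual degrees of freedom, a p that misses the threshold does not show that values did not differ.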

Other observations

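Of 12 other genes tested in the lactate and pyruvate branch, 2 fell with DMSO (16.7%, beside 4.91% of all genes) and 3 fell with BI6727 (25.0%, beside 5.99%), and 0 rose. In each comparison 6 of the 12 log2 fold changes were positive and 6 negative. The genes named here were chosen after their values were seen. Ldhb, the other main lactate dehydrogenase subunit, fell by 0.82 ± 0.14 (log2, SE) with DMSO (adjusted p = 0.00585) and fell by 0.80 ± 0.14 with BI6727 (adjusted p = 0.00615). Pdk4, a paralogue of Pdk1, fell by 0.87 ± 0.14 with BI6727 (adjusted p = 0.00452), and its log2 fold change with DMSO was -0.50 ± 0.14 (adjusted p = 0.0385). Of the genes beside glycolysis, Pgm1, which links glycogen to glucose 6-phosphate, rose by 0.56 ± 0.09 with DMSO (adjusted p = 0.00547), and Gbe1, the glycogen branching enzyme, fell by 0.80 ± 0.12 (adjusted p = 0.00428). Arnt2, a partner subunit of HIF alpha, fell by 1.30 ± 0.23 with BI6727 (adjusted p = 0.00672), with -1.14 ± 0.22 with DMSO (adjusted p = 0.0117). None of these differed past the test between the TGFB1 groups.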
